A study of Mus musculus with 3 samples.

Results

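The nuclear genes of the mitochondrial respiratory chain and ATP synthase were examined in lymphocytes that had entered a mouse tumor recently and in those that had stayed there. The members were all genes whose symbol begins with Ndufa, Ndufb, Ndufc, Ndufs or Ndufv, with Uqcr, with Cox4 to Cox8, or with Atp5, which gave 90 of the 32285 genes in the files, Ndufb1-ps included. They comprised 37 complex I subunits, 8 complex I assembly factors (Ndufaf genes), 8 complex III genes, 20 complex IV genes and 17 ATP synthase genes. Ndufa4 and Ndufa4l2, named after complex I, were counted with complex IV, where the Ndufa4 protein is found. The electron transport chain moves electrons from NADH to oxygen through complexes I, III and IV, which pump protons across the inner mitochondrial membrane, and ATP synthase uses that gradient to make ATP. Most subunits are encoded in the nucleus and imported, while a small core is encoded by mitochondrial DNA, so a working chain needs both genomes. Lymphocytes are known to enlarge their respiratory capacity when they are activated, and loss of it is a described feature of exhausted T cells.

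The cells came from subcutaneous MC38-Ova tumors, a colon carcinoma line carrying ovalbumin, grown in wild-type C57BL/6 Kaede mice that had been given an isotype control antibody according to the labels. Kaede is a green fluorescent protein that switches to red under violet light. Tumors were started with 250000 cells, photoconverted on day 13 and harvested on day 15, so Kaede-red (KR+) cells had been in the tumor for at least 48 h and Kaede-green (KG+) cells had entered since. CD45+ TER119- Kaede+ cells were sorted without the CD11b+ NK1.1- myeloid cells and sequenced as 2 KG+ libraries and 1 KR+ library with 10x Genomics 3′ chemistry, which counts transcript 3′ ends by unique molecular identifier (UMI). All mice shared genotype, tumor line and treatment. The labels do not say how many mice were pooled in a library.

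Cells were assigned from raw UMIs. NK cells had Ncr1 and at most 1 Cd3e UMI, and were split into Itgam+, Itga1+ and cells with neither integrin. CD8 T cells had at least 2 Cd3e UMIs with Cd8a and Cd8b1, and were split by Havcr2, which encodes the exhaustion-associated receptor TIM-3. Regulatory T cells (Treg) had at least 2 Cd3e UMIs and Foxp3, γδ T cells had Cd3e and Cd163l1, and plasmacytoid dendritic cells (pDC) had at least 2 Siglech UMIs and at most 1 Cd3e UMI. Of 31145 cells kept, 797 were NK Itgam+, 5132 NK with neither integrin, 2314 NK Itga1+, 5830 CD8 T Havcr2-, 3394 CD8 T Havcr2+, 1717 Treg, 633 γδ T and 363 pDC. Cells that met more than 1 definition (587) and NK cells with both integrins (117) were left out.

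The libraries held 87193225 to 175848894 UMIs in 10498 to 12327 barcodes, and 20 to 36 barcodes were shared between any pair of libraries. The gates fixed which defining genes each group carried, so those genes do not test its identity. The Treg, γδ T and pDC marker lists, which include gated genes, averaged 6034, 5252 and 15916 CPM in their own group. In any other group they averaged at most 878, 1046 and 1968 CPM. The NK list did not separate pDC (4582 CPM, of which Tyrobp 4548 CPM) from NK Itga1+ cells (3731 CPM). The 8 groups differed in depth, with a median of 5339 to 6712 UMIs per cell in NK Itgam+ and 9424 to 24459 in NK Itga1+ cells. pDC contained Tyrobp and Cd68, which pDC are known to express, and also Cd8b1 and Igkc at 302 to 881 and 286 to 942 CPM, whereas their T cell list (Cd3e, Cd3d, Cd3g, Trac and Trbc2) summed to 66.2, 169 and 90.7 CPM in the KG+ 1, KG+ 2 and KR+ libraries, and the part of these transcripts in the pDC results was not tested. CPM relates the UMIs of a gene to all UMIs of the group, scaled to 1000000 UMIs, and since a transcript is counted once at its 3′ end it is not divided by length. The myeloid list of 6 genes summed to 13.3, 626 and 191 CPM in NK Itgam+ cells of these libraries and its part in the NK results was not tested.

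Members together took between 2.19% and 2.78% of all UMIs. In KG+ 1, KG+ 2 and KR+ the share was 2.22%, 2.25% and 2.36% in NK Itgam+ cells, 2.39%, 2.45% and 2.68% in NK cells with neither integrin and 2.56%, 2.54% and 2.70% in NK Itga1+ cells. It was 2.29%, 2.42% and 2.65% in CD8 T Havcr2- cells and 2.76%, 2.72% and 2.86% in CD8 T Havcr2+ cells, the highest group. NK Itga1+ and CD8 T Havcr2+ cells each lay above their counterpart in every library. Treg stood at 2.59% ± 0.09 and pDC at 2.61% ± 0.07 (mean ± SD, n = 3 libraries), while γδ T cells were lowest at 2.19% ± 0.07. By mean the order was γδ T, NK Itgam+, CD8 T Havcr2-, NK with neither, Treg, NK Itga1+, pDC and CD8 T Havcr2+, and neighbors from NK Itgam+ to pDC differed by less than the larger of their SDs. In NK, CD8 T and Treg cells the share was also higher in cells with more UMIs. In KG+ 1 NK Itga1+ cells it went from 2.05% at 2000 to 5000 UMIs per cell to 2.73% at 20000 UMIs or more, and in Treg from 1.99% to 2.99%. pDC went the other way, from 2.64% at 5000 to 10000 UMIs to 2.59% at 10000 to 20000 UMIs in KG+ 1 and from 2.78% to 2.68% in KG+ 2, and γδ T cells of KG+ 1 showed no steady order (2.14%, 2.19% and 2.04%). Among cells of 6000 to 12000 UMIs it was 2.29% ± 0.07 in NK Itgam+, 2.40% ± 0.08 in NK with neither integrin, 2.40% ± 0.05 in NK Itga1+, 2.23% ± 0.18 in CD8 T Havcr2-, 2.52% ± 0.09 in CD8 T Havcr2+, 2.31% ± 0.06 in Treg, 2.19% ± 0.06 in γδ T cells and 2.58% ± 0.17 in pDC, where KR+ held 7 cells in that range. There pDC rather than CD8 T Havcr2+ cells had the highest mean, by less than their SD. The pDC share includes the complex IV gene Cox6a2, at 1494 CPM over all pDC, which is more than that lead. It is also more than the lead of pDC over Treg and NK Itga1+ cells when all cells were taken.

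**Figure D1:**
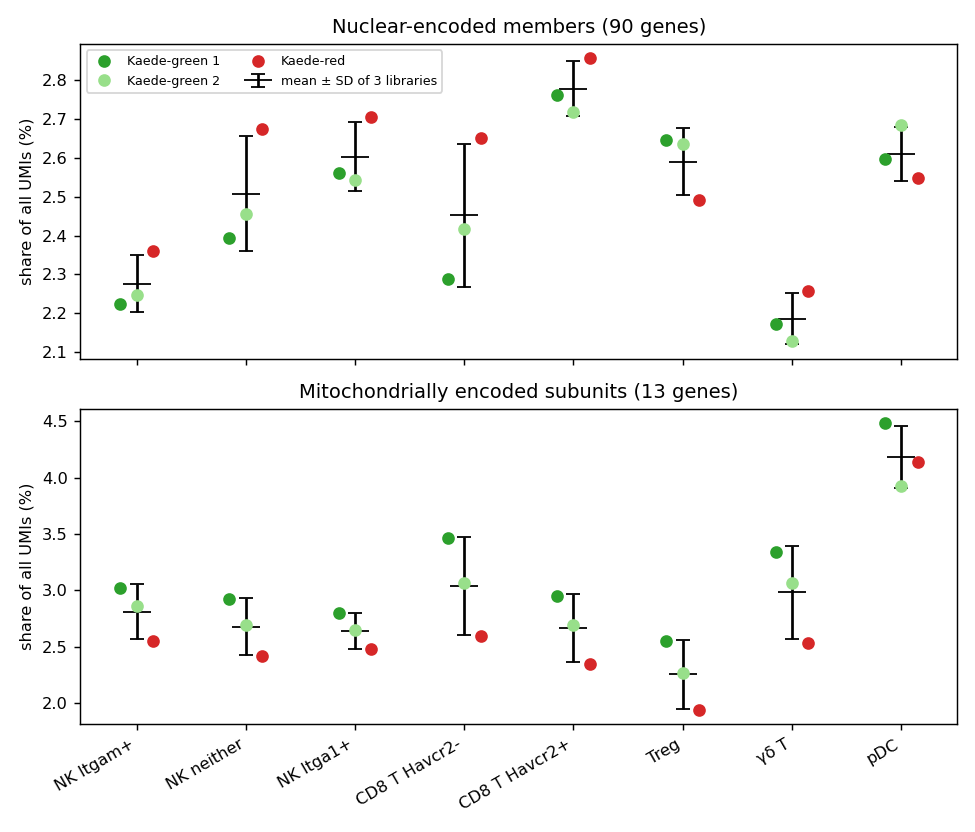
Share of all UMIs (y axis, percent) in each cell group (x axis) for the 90 nuclear-encoded members (top) and the 13 mitochondrially encoded subunits (bottom); points are the 3 libraries, dashes and bars the mean ± SD, and the y axes do not start at 0. CD8 T Havcr2+ cells sit highest and γδ T cells lowest for the nuclear genes, and pDC sit highest for the mitochondrial genes.

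The classes kept similar proportions across groups. ATP synthase genes made up 0.75% ± 0.03 of UMIs in NK Itgam+, 0.87% ± 0.03 in NK Itga1+ and 0.90% ± 0.01 in CD8 T Havcr2+ cells, and complex I subunits 0.62% ± 0.02, 0.73% ± 0.03 and 0.80% ± 0.03. pDC departed from this pattern. Their complex IV share of 0.83% ± 0.02 was above their ATP synthase share of 0.76% ± 0.03, the reverse of the other 7 groups. The gap between these shares is smaller than the level of a single complex IV gene, Cox6a2, at 1494 CPM over all pDC. The 13 subunits encoded by mitochondrial DNA took 4.18% ± 0.28 of UMIs in pDC and 2.26% ± 0.31 in Treg, the highest and lowest of the groups.

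The complex IV gene Cox6a2 separated pDC from every lymphocyte group. Cox6a2, known as the heart and skeletal muscle form of a complex IV subunit whose broadly expressed form is Cox6a1, stood at 1449, 1536 and 1467 CPM in KG+ 1, KG+ 2 and KR+ pDC. In the other 7 groups it ranged from 0 to 9.53 CPM in a library, so the groups did not overlap. The difference from CD8 T cells was 8.74 on the log2 scale (edgeR quasi-likelihood test, SE 0.41, adjusted p = 5.99e-14). Cox6a2 had been listed beforehand as a pDC marker and was left out of the marker check because it is a member. The test on Cox6a2 is therefore not independent support. Cox6a1 was present beside it in pDC, at 338, 362 and 292 CPM against 359, 345 and 356 CPM in CD8 T Havcr2+ cells. A Cox6a2 UMI was found in 85.3% of 116 KG+ 1, 80.2% of 172 KG+ 2 and 92.0% of 75 KR+ pDC (exact 95% intervals 77.6% to 91.2%, 73.5% to 85.9% and 83.4% to 97.0%), at median depths of 11470 to 14388 UMIs. In CD8 T Havcr2+ cells, of median depth 12338 to 17542 UMIs, the shares were 0.658%, 1.71% and 0.318%. The pDC, 363 of 31145 cells, held 80.4% of all Cox6a2 UMIs in kept cells. A further 12.4% lay in 390 cells outside the pDC definition with at least 1 Siglech UMI, and cells without Siglech averaged 2.47, 3.01 and 0.533 CPM in the 3 libraries. The part of free RNA in that low level was not tested.

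**Figure D2:**
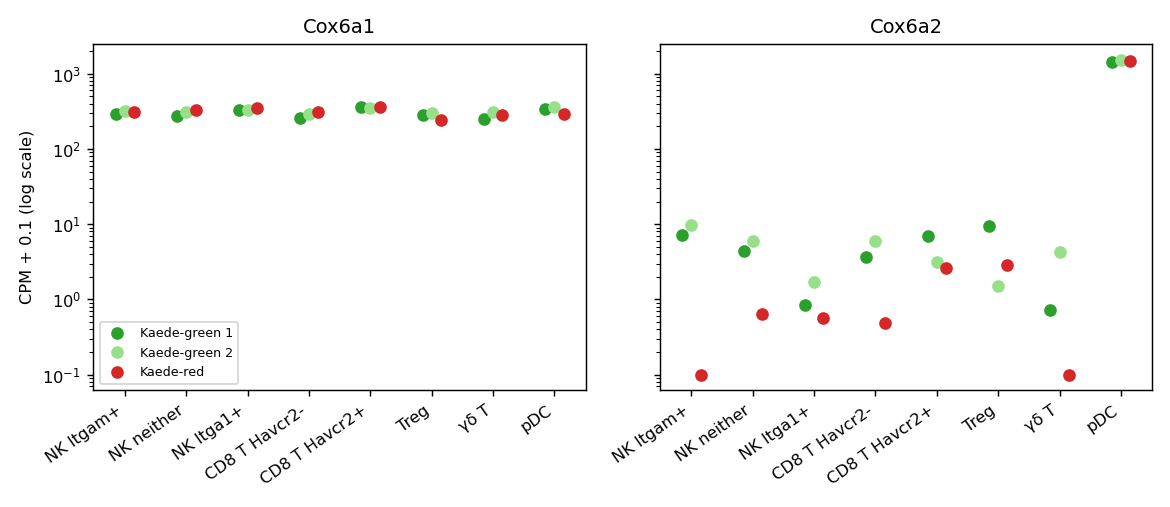
CPM of Cox6a1 (left) and Cox6a2 (right) in each cell group and library, with 0.1 added and a log y axis, so that libraries at 0 plot at 0.1. Cox6a1 lies between 244 and 362 CPM throughout, while Cox6a2 is at 1449 to 1536 CPM in pDC and at most 9.53 CPM elsewhere.

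In the Cox4i, Cox6b, Cox7b, Cox8 and Ndufa4 paralog sets a single form prevailed in every group, unlike in the Cox7a and Atp5g sets. Cox4i1 ranged from 747 ± 56.0 CPM in γδ T to 1108 ± 61.1 CPM in pDC, whereas the oxygen-responsive form Cox4i2 had at most 3 UMIs in any group and library. Cox6b1 lay between 469 ± 9.53 CPM and 591 ± 15.1 CPM and the testis form Cox6b2 at 4.18 CPM or below in every library. Cox7a2 ranged from 392 ± 32.7 CPM in γδ T to 661 ± 50.2 CPM in NK Itga1+ cells. Cox7a2l was expressed beside it, with 106949 UMIs in all kept cells against 198071 of Cox7a2. The muscle form Cox7a1 was low but higher in NK Itga1+ (5.01, 4.18 and 5.36 CPM) than in NK Itgam+ cells (2.35, 3.03 and 0 CPM) in every library, and that difference did not pass the test (log2 difference 1.03, SE 0.46, adjusted p = 0.1). Cox7b (388 to 522 CPM on average) and Cox8a (836 to 1217 CPM) were abundant in all groups. Cox7b2 and Cox8c had no UMI in any barcode, Cox8b had 2, and the hypoxia-induced Ndufa4l2 had 39, at most 2 of them in any group and library. These 4 genes and Cox4i2 were too low to test, which left 85 members tested. The 3 genes for the identical mature c subunit of the ATP synthase ring were all expressed, with Atp5g2 highest in each group, from 418 ± 39.8 CPM in γδ T to 661 ± 78.6 CPM in NK Itga1+ cells, and Atp5g1 and Atp5g3 between 216 and 332 CPM on average.

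The study used the integrins Itga1 (CD49a) and Itgam (CD11b) to follow NK cells after entry into the tumor, and NK cells with either one were compared here. UMIs were summed per group and library and tested with edgeR's quasi-likelihood test with the library as a block, and p-values were adjusted by Benjamini-Hochberg over all genes. They rest on how the differences between groups vary over these 3 libraries, with the variation estimated over all 8 groups, and cover these libraries only. Members of all 5 classes were higher in NK Itga1+ cells when all cells were summed. Of 85 members 62 were higher and 0 lower, against 16.7% and 13.3% of all 12302 genes tested, and 80 had a positive difference, with a median of 0.41 on the log2 scale against 0.02 over all genes. The count was 32 of 37 complex I subunits, 6 of 8 assembly factors, 5 of 8 complex III genes, 7 of 15 complex IV genes tested and 12 of 17 ATP synthase genes. Ndufab1, the mitochondrial acyl carrier protein that is also a complex I subunit, rose from 74.9, 79.3 and 114 CPM in KG+ 1, KG+ 2 and KR+ NK Itgam+ cells to 141, 161 and 189.7 CPM in NK Itga1+ cells, without overlap (log2 difference 1.03, SE 0.18, adjusted p = 0.000346). Ndufa12, an accessory complex I subunit, stood at 98.1, 105 and 135 CPM and 171, 166 and 203 CPM, again without overlap (log2 difference 0.81, SE 0.16, adjusted p = 0.00104). The steepest rise was that of the assembly factor Ndufaf6 (1.48 ± 0.42, difference ± SE), but at low levels of 0.785, 5.63 and 1.54 CPM against 7.52, 7.01 and 8.64 CPM, and among the assembly factors it was followed by Ndufaf5, which modifies a complex I subunit (0.91 ± 0.29).

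In the other classes the leading rises were smaller. Atp5g2 went from 410.0, 424 and 545 CPM to 639.6, 596 and 748 CPM (log2 difference 0.64, SE 0.11, adjusted p = 0.000214), and every NK Itga1+ library exceeded every NK Itgam+ library. Its sister genes rose with it, Atp5g1 by 0.60 ± 0.14 and Atp5g3 by 0.53 ± 0.11, as did Atp5f1, a stalk subunit (0.62 ± 0.12). Cox5a and Cox5b, subunits of complex IV around its catalytic core, rose by 0.57 ± 0.11 and 0.46 ± 0.11, and the small complex III subunits Uqcr11 and Uqcr10 by 0.64 ± 0.13 and 0.59 ± 0.11. Uqcrh, the complex III hinge protein, did not follow: it was 770.2, 735 and 725 CPM in NK Itgam+ and 669, 669 and 613 CPM in NK Itga1+ cells (log2 difference -0.08, SE 0.08, adjusted p = 0.472). The test calls depended on cell depth and on single libraries. In cells of 6000 to 12000 UMIs no member passed, with 32 genes higher and 45 lower among 10078 tested, and the median member difference was 0.11 (0.02 over all genes). In that range complex III took 0.209% ± 0.006 of UMIs in NK Itgam+ and 0.207% ± 0.005 in NK Itga1+ cells, and complex IV 0.694% ± 0.031 and 0.697% ± 0.005, differences smaller than the SDs. Complex I subunits took 0.61% ± 0.02 and 0.67% ± 0.01, complex I assembly factors 0.0145% ± 0.0018 and 0.0177% ± 0.0007, and ATP synthase 0.76% ± 0.02 and 0.80% ± 0.03. These classes were higher in NK Itga1+ than in NK Itgam+ cells within every library. Without KG+ 1 the count of higher members was 26, without KG+ 2 it was 20 and without KR+ 55. Calls over all genes fell as well, to 8.11%, 5.79% and 15.0% higher. Scaling to total UMIs gave 44 members higher and 2 lower (all genes 13.0% and 17.9%) while shifting the median of all genes to -0.10. The cell cycle list of 8 genes also moved with this contrast, from 252, 269 and 263 CPM in NK Itgam+ to 579, 749.7 and 1212 CPM in NK Itga1+ cells. With the cycling cells left out 51 members were higher, against 10.4% of all genes.

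Several neighboring pathways moved in the same contrast, in which 16.7% of all genes were higher and 13.3% lower. Of the 78 mitochondrial ribosomal protein genes, 64 were higher and 0 lower (median 0.66), led by Mrps28 (log2 difference 1.58, SE 0.31, adjusted p = 0.000808). That list took 0.389% ± 0.034 of UMIs in NK Itgam+ and 0.539% ± 0.040 in NK Itga1+ cells (mean ± SD). In cells of 6000 to 12000 UMIs it took 0.383% ± 0.027 and 0.446% ± 0.008, and 0.32% of all genes were higher there. The calls of the lists were not counted in that range. Of the succinate dehydrogenase genes of complex II, Sdhb, Sdhc and Sdhd rose by 0.32 ± 0.10, 0.62 ± 0.12 and 0.60 ± 0.12. Cytochrome c and coenzyme Q genes gave 6 higher of 13 (led by Coq4, 1.21 ± 0.32), the TCA cycle 6 of 16 (led by fumarase Fh1, 0.80 ± 0.25), and the assembly factors of complexes III, IV and ATP synthase 9 higher (led by Coa7, 1.48 ± 0.29) and 1 lower (Ttc19, -0.59 ± 0.11) of 27. Atpif1, which inhibits reverse action of ATP synthase, went from 90.2, 104 and 105 CPM to 178, 173 and 233 CPM (log2 difference 1.06, SE 0.16, adjusted p = 0.000125). The 13 mitochondrially encoded subunits were not among the called genes (0 higher, 0 lower, all between -0.16 and 0.17). Of 14 regulators of mitochondrial biogenesis 3 were higher and 2 lower, near the shares over all genes. The mitochondrial helicase Twnk (1.43 ± 0.47), the coactivator Pprc1 (1.24 ± 0.34) and the single-strand binding protein Ssbp1 (0.47 ± 0.10) rose. The mitochondrial transcription factor Tfam (-0.64 ± 0.13) and Myc (-0.80 ± 0.23) fell. Tfam went from 87.1, 94.9 and 52.3 CPM to 50.1, 51.4 and 41.0 CPM.

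Between CD8 T cells with and without Havcr2 fewer members passed the test. Of 85 members 5 were higher and 1 lower in CD8 T Havcr2+ cells, against 5.52% and 8.38% of all genes, although 72 had a positive difference (median 0.15, all genes -0.01). The higher count was thus near the share over all genes. In cells of 6000 to 12000 UMIs 4 members were higher and 0 lower of 83 (all genes 5.64% and 6.44%), and the median member difference was 0.14. Cox5a rose from 385, 418 and 495 CPM in KG+ 1, KG+ 2 and KR+ Havcr2- cells to 577, 551 and 625 CPM in Havcr2+ cells, without overlap (log2 difference 0.39, SE 0.10, adjusted p = 0.0138). The complex I assembly factor Ndufaf3 rose from 22.9, 25.3 and 30.1 CPM to 38.8, 33.6 and 37.6 CPM (log2 difference 0.44, SE 0.11, adjusted p = 0.0105). The complex I subunits Ndufv3 (0.29 ± 0.09), Ndufs5 (0.31 ± 0.11, at the threshold with adjusted p = 0.04999) and Ndufb7 (0.28 ± 0.07) completed the rises. Ndufa6, an accessory complex I subunit, fell from 289, 299 and 279 CPM to 259.9, 272 and 244 CPM (log2 difference -0.21, SE 0.07, adjusted p = 0.042). These counts were unstable: 26 members were higher and 0 lower when sums were scaled to total UMIs, 43 and 1 without the KR+ library, 0 and 0 without KG+ 1, without KG+ 2 or without the library block, and 22 and 0 without cycling cells. Calls over all genes moved too. The higher share was 7.52% with total UMIs, 13.4% without KR+ and 8.19% without cycling cells. It was only 0.85%, 1.22% and 1.45% without KG+ 1, without KG+ 2 and without the block. Of the other lists, the copper chaperone Cox17, which serves complex IV assembly, rose most, from 466, 565 and 666 CPM to 976, 915 and 996 CPM (log2 difference 0.73, SE 0.09, adjusted p = 2.65e-05). Cox20 rose by 0.29 ± 0.09, and the complex III assembly factor Ttc19 was lower (-0.32 ± 0.09). Of the mitochondrially encoded subunits 5 of 13 were lower, mt-Nd2 by the most (-0.40 ± 0.09), with mt-Nd5, mt-Nd4, mt-Co1 and mt-Atp6 between -0.38 and -0.25. Myc was lower in Havcr2+ cells (-0.60 ± 0.19), Mrpl53 and Mrps21 were higher and Mrpl30 lower among 78 ribosomal genes, and no complex II, cytochrome c and coenzyme Q or TCA cycle gene passed the test.

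**Figure D3:**
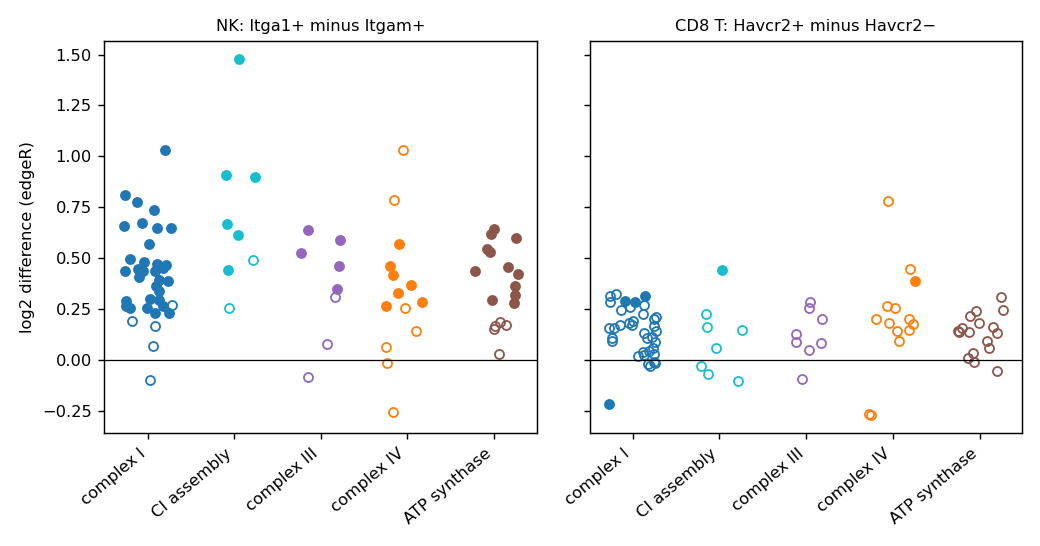
Log2 difference (y axis, edgeR) of each tested member except Cox6a2, by class (x axis), for NK Itga1+ minus Itgam+ (left) and CD8 T Havcr2+ minus Havcr2- (right); filled points passed the adjusted threshold. All filled NK points lie above 0, 62 in number, against 5 above and 1 below in CD8 T cells.

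The NK contrast was tested directly against the CD8 T contrast. The contrasts were not built alike, since NK cells with neither integrin were left out of the first, whereas Havcr2 split all CD8 T cells. In KR+ the median depth was 24459 UMIs in NK Itga1+ and 6701 in NK Itgam+ cells. It was 17542 in CD8 T Havcr2+ and 11121 in Havcr2- cells. The part of these differences in the result was not tested. Of all genes, 6.4% passed with the larger difference in NK cells and 3.63% in the other direction. The difference passed for 8 of 85 members, not far above that share, and all 8 had the larger difference in NK cells. They were Ndufaf6 (1.58 ± 0.48), Ndufa10 (0.75 ± 0.17), Atp5g2 (0.70 ± 0.15), Ndufa9 (0.68 ± 0.18), the core complex I subunits Ndufs3 and Ndufs7 (0.61 ± 0.15 and 0.50 ± 0.14), the NADH-binding subunit Ndufv1 (0.53 ± 0.16) and Uqcr10 (0.50 ± 0.16). Ndufa10, a complex I subunit, was 64.3, 68.9 and 53.8 CPM in NK Itgam+ and 94.96, 92.0 and 121 CPM in NK Itga1+ cells, but 93.9, 85.7 and 102 CPM and 98.6, 92.0 and 107 CPM in CD8 T Havcr2- and Havcr2+ cells. Atp5g2 showed the same contrast, with 588, 569.8 and 706 CPM and 632, 575 and 645 CPM in the CD8 T groups. The lists gave 24 higher mitochondrial ribosomal genes of 78 (led by Mrps28, 1.45 ± 0.38), the coenzyme Q genes Coq2, Coq4 and Coq5 (0.79 ± 0.21, 1.44 ± 0.37 and 0.64 ± 0.19), Suclg1 (0.79 ± 0.18), Atpif1 (0.71 ± 0.22), Coa6, Coa7 and Cox10 (0.80 ± 0.20, 1.55 ± 0.34 and 1.23 ± 0.34), and Cox17 in the opposite direction (-0.54 ± 0.14). In cells of 6000 to 12000 UMIs 1 member passed, and the direction of the set was lost, with 36 of 83 members positive and a median of -0.01, against 77 of 85 and 0.25 over all cells. In that range 1.47% of all genes were higher. No member passed without KG+ 1 or without KG+ 2, where only 0.39% and 0.16% of all genes were higher. Without the library block 1 member passed, and 1.61% of all genes were higher.

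Each other lineage was compared with the mean of both CD8 T groups, so the next 4 comparisons share their CD8 T sums. NK cells, taken as the mean of their 3 groups, had 4 members higher and 24 lower of 85, where 20.7% and 24.8% of all genes were. The lower count was near the share over all genes, and the higher count was below it. The complex I subunit Ndufs4 was higher, at 149 ± 7.69 CPM (SD, n = 3) in NK cells with neither integrin and 115 ± 7.34 CPM in CD8 T Havcr2- cells (log2 difference 0.27, SE 0.05, adjusted p = 0.000179), as were Cox7a2 (0.26 ± 0.05), Ndufa4 (0.26 ± 0.06) and Ndufb11 (0.17 ± 0.05). Among the lower members were the assembly factors Ndufaf5 (-0.49 ± 0.13) and Ndufaf3 (-0.43 ± 0.08), Ndufv3 (-0.38 ± 0.06), the Rieske protein Uqcrfs1 (-0.29 ± 0.07), Uqcrh (-0.23 ± 0.05), Cox7a2l (-0.33 ± 0.08), Cox7c (-0.26 ± 0.05), Atp5c1 (-0.20 ± 0.06) and Atp5l (-0.13 ± 0.05). Cox7a2l was 259, 249 and 258 CPM in NK Itga1+ cells and 309, 288 and 328 CPM in CD8 T Havcr2+ cells, without overlap. Without KG+ 1 the lower count was 8, without KG+ 2 it was 6 and without KR+ 39, where 17.6%, 16.8% and 26.3% of all genes were lower. Cells of 6000 to 12000 UMIs gave 9 higher and 13 lower (all genes 19.0% and 20.7%).

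Of 14 regulators of mitochondrial biogenesis 4 were higher and 1 lower in NK than in CD8 T cells, where 20.7% and 24.8% of all genes were. Ppargc1a, the PGC-1α coactivator of mitochondrial biogenesis, stood at 6.28, 5.20 and 7.69 CPM in NK Itgam+ and 4.01, 2.02 and 1.09 CPM in NK Itga1+ cells but at 0.17, 0.129 and 0.178 CPM in CD8 T Havcr2- cells (log2 difference 4.39, SE 0.38, adjusted p = 1.1e-08). No library of a CD8 T group reached the lowest NK value of 1.09 CPM, though the NK levels themselves are low. Myc (1.36 ± 0.13), Tfam (0.65 ± 0.08) and Esrra (0.22 ± 0.09) were also higher and Ssbp1 lower (-0.33 ± 0.06). Cox17 was lower by the most among assembly factors (-1.04 ± 0.06, 3 higher and 11 lower of 27), 32 mitochondrial ribosomal genes were lower and 3 higher (extremes Mrpl54, -0.75 ± 0.09, and Mrpl23, 0.25 ± 0.09), and Atpif1 was lower (-0.46 ± 0.10). Of the 4 complex II genes Sdhc rose and Sdhb fell. Of the 13 cytochrome c and coenzyme Q genes Cycs, Coq2 and Coq8b rose and Coq3 and Coq7 fell. The TCA cycle gave 5 higher and 3 lower of 16 (extremes Suclg2, 0.47 ± 0.09, and Idh3a, -0.46 ± 0.09). Of the 13 mitochondrially encoded subunits mt-Nd5 and mt-Atp8 rose. None of the counts in these last lists was far above the share over all genes.

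Treg had 4 members higher and 23 lower than CD8 T cells, against 18.6% and 16.5% of all genes, with a median of -0.12 (all genes -0.01). Cox7a2l was lower, at 248, 225 and 261 CPM (log2 difference -0.57, SE 0.10, adjusted p = 0.000192), and the Treg and CD8 T libraries did not overlap. The ATP synthase stalk subunit Atp5h (-0.43 ± 0.07), Atp5l (-0.27 ± 0.07), Ndufa6 (-0.43 ± 0.06), Ndufb10 (-0.36 ± 0.07), Ndufaf4 (-0.34 ± 0.12), Cox6a1 (-0.32 ± 0.09) and Uqcrh (-0.27 ± 0.07) were also lower. The rises were those of Ndufs4 (0.35 ± 0.07), Ndufaf3 (0.29 ± 0.10), Ndufa4 (0.23 ± 0.08) and Ndufb7 (0.17 ± 0.06). Scaling to total UMIs moved the median of all genes to 0.11 and gave 8 higher and 6 lower (all genes 24.9% and 11.1%). Lower counts were 8 without KG+ 1, 7 without KG+ 2, 12 without the library block and 36 without cycling cells. The lower shares over all genes were then 10.6%, 9.44%, 12.1% and 15.7%. The mitochondrially encoded subunits were lower throughout, 13 of 13 (median -0.58), and mt-Nd5 fell from 427, 395 and 293 CPM in CD8 T Havcr2- cells to 218, 239 and 167 CPM in Treg (log2 difference -0.79, SE 0.09, adjusted p = 2.2e-07). Coq8a, an atypical kinase of coenzyme Q synthesis, was 27.7, 27.8 and 27.2 CPM in Treg and 3.28, 3.31 and 4.14 CPM in CD8 T Havcr2- cells (log2 difference 2.88, SE 0.20, adjusted p = 1.74e-10), the clearest rise of that list, in which Coq2 and Coq5 fell. Sdhb rose (0.31 ± 0.08), Idh3a and Pdhb fell (-0.38 ± 0.11 and -0.28 ± 0.07), regulators gave 1 higher (Myc, 0.77 ± 0.18) and 5 lower (Ppargc1b by the most, -0.998 ± 0.33), assembly factors 2 higher and 8 lower of 27 (Sco1, 0.43 ± 0.12, and Sco2, -0.71 ± 0.18), and the ribosomal list 4 higher and 10 lower (Mrpl27, 0.45 ± 0.10, and Mrpl38, -0.56 ± 0.16).

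γδ T cells had more lower members than NK cells, Treg or pDC. Of 85 members 60 were lower and 2 higher, against 19.6% and 18.3% of all genes, with a median of -0.37 (all genes -0.05). It covered 27 of 37 complex I subunits, 2 of 8 assembly factors, 6 of 8 complex III genes, 10 of 15 complex IV genes tested and 15 of 17 ATP synthase genes. Cox5b fell to 398, 367 and 471 CPM from 487, 489.6 and 623 CPM in CD8 T Havcr2- and 649, 616 and 720.4 CPM in Havcr2+ cells, without overlap (log2 difference -0.63, SE 0.10, adjusted p = 2.04e-05). Uqcrq, a small complex III subunit, fell to 244, 242 and 268 CPM from 308, 335 and 355 CPM in Havcr2- cells (log2 difference -0.63, SE 0.07, adjusted p = 6.68e-07). Ndufb6 (-0.76 ± 0.12), Ndufc2 (-0.71 ± 0.13), Ndufaf3 (-0.82 ± 0.15), Ndufaf7 (-0.63 ± 0.13), Uqcr10 (-0.38 ± 0.10), Cox5a (-0.56 ± 0.09), Atp5g2 (-0.67 ± 0.09) and Atp5g1 (-0.62 ± 0.13) led their classes. Atp5md, a small membrane subunit of ATP synthase, went the other way, at 673, 660.1 and 696 CPM against 399.9, 433 and 448 CPM in CD8 T Havcr2- and 519, 505 and 519 CPM in Havcr2+ cells (log2 difference 0.43, SE 0.07, adjusted p = 8.01e-05), and γδ T cells were above every library of the other 7 groups. Ndufa4 was the second exception (0.31 ± 0.09). Among cells of 6000 to 12000 UMIs 36 members were lower and 3 higher of 83 tested (all genes 10.7% and 13.3%). Lower counts were 41 to 57 with a library left out (all genes 12.0% to 15.9%) and 50 with total UMIs (14.9%). The ribosomal list fell too, with 60 of 78 lower (extremes Mrps2, -1.36 ± 0.48, and the single rise Mrps5, 0.85 ± 0.16), as did Atpif1 (-0.98 ± 0.15), Sdhb, Sdhc and Sdhd (-0.61 ± 0.09, -0.48 ± 0.12 and -0.54 ± 0.11), Cycs, Cyc1, Coq7 and Coq9, Suclg1, Mdh2 and Idh3a of the TCA cycle, Ssbp1 and Tfb1m. Of the assembly factors 9 were lower (Taco1 by the most, -1.66 ± 0.58) and Ttc19 higher (0.58 ± 0.10). Of the mitochondrially encoded subunits mt-Atp8 and mt-Nd3 were lower (-0.33 ± 0.08 and -0.23 ± 0.09), with a median of -0.04 over the 13.

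pDC showed a mixed pattern, with 10 members higher and 37 lower, against 27.4% and 31.4% of all genes. ATP synthase genes gave 11 lower and 0 higher of 17, and complex I subunits 13 lower and 5 higher of 37. Complex IV genes gave 9 lower and 2 higher of 15 tested, with Cox6a2 among the rises. Atp5d, the delta subunit, fell to 339.9, 337 and 351 CPM from 461, 457 and 526 CPM in CD8 T Havcr2- cells (log2 difference -0.74, SE 0.07, adjusted p = 2.96e-09), and Uqcrh to 544, 513 and 623 CPM from 829, 848 and 849 CPM (log2 difference -0.73, SE 0.07, adjusted p = 1.01e-08), both without overlap. Atp5j (-0.63 ± 0.09), Ndufb7 (-0.74 ± 0.07), Ndufa8 (-0.57 ± 0.08), Ndufaf2 (-0.71 ± 0.19), Cox7a2l (-0.74 ± 0.11), Cox7c (-0.59 ± 0.07) and Uqcr10 (-0.26 ± 0.10) were also lower. The iron-sulfur subunit Ndufs8 rose to 170.3, 173 and 146 CPM from 87.2, 89.5 and 103 CPM (log2 difference 0.59, SE 0.10, adjusted p = 2.71e-05), without overlap, and Ndufc1 (0.38 ± 0.11), Ndufaf3 (0.47 ± 0.12), Ndufaf8 (0.26 ± 0.09), Uqcr11 (0.36 ± 0.11) and Cox4i1 (0.18 ± 0.07) rose beside Cox6a2. The split depended on scaling, since total UMIs moved the median of all genes from -0.11 to 0.05 and gave 22 higher and 23 lower (all genes 32.3% and 25.7%). Cells of 6000 to 12000 UMIs, where the 7 KR+ pDC were left out of the fit, gave 19 higher and 12 lower of 83. There 23.1% of all genes were higher and 23.1% lower, so the higher count was near the share over all genes. Without KG+ 2 the count was 2 higher and 26 lower (all genes 22.6% and 24.3%). Of the mitochondrially encoded subunits 10 of 13 were higher and 1 lower (mt-Nd5, 0.63 ± 0.08, and mt-Nd6, -0.52 ± 0.12). Coq2, which attaches the side chain of coenzyme Q, was 77.3, 56.7 and 75.2 CPM in pDC against 23.3, 21.4 and 27.1 CPM in CD8 T Havcr2- cells (log2 difference 1.33, SE 0.13, adjusted p = 6.9e-09), Pdss1 was lower (-1.28 ± 0.37), with 4 of that list higher and 2 lower of 13. Of the regulators, Myc (-3.38 ± 0.53), Pprc1 (-1.17 ± 0.34), Nrf1 (-0.85 ± 0.13), Tfam (-0.83 ± 0.15) and Ssbp1 (-0.35 ± 0.09) were lower. Sdha and Sdhb rose and Sdhd fell, the TCA cycle gave 2 higher (Dlst by the most, 0.66 ± 0.12) and 7 lower (Idh3b by the most, -0.98 ± 0.11), assembly factors 7 and 7 (Coa5, 1.09 ± 0.09, and Cox17, -1.29 ± 0.09), and the ribosomal list 10 and 22 (Mrpl38, 1.58 ± 0.16, and Mrps6, -1.59 ± 0.12).

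**Figure D4:**
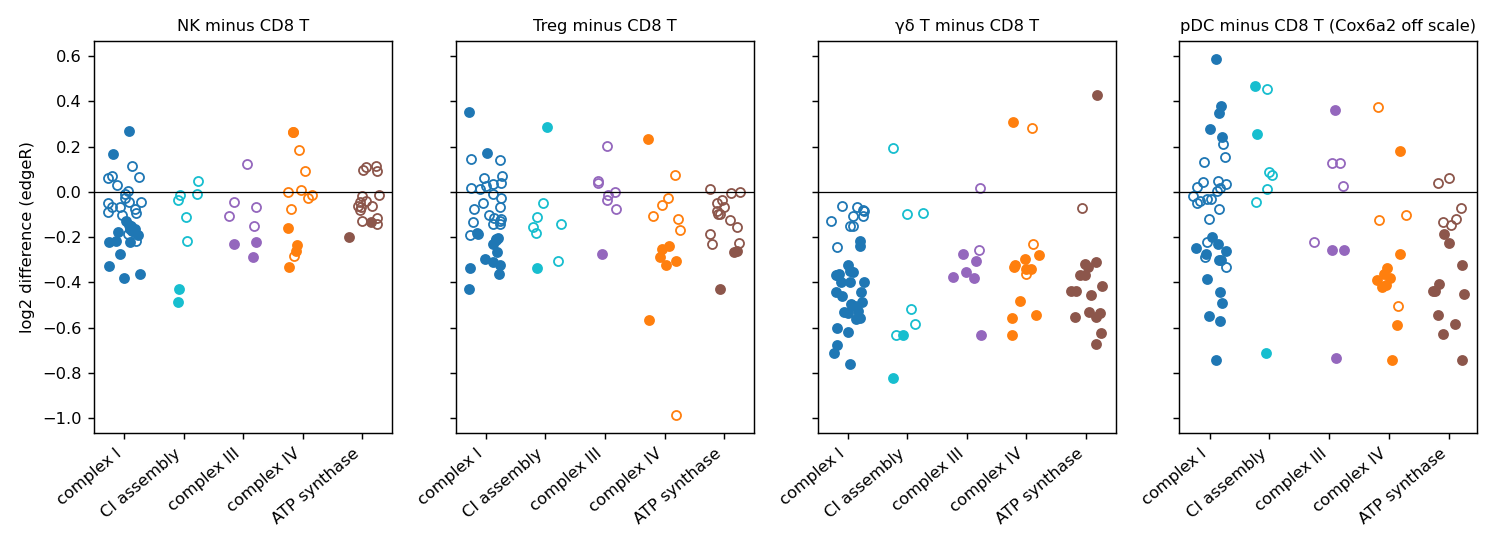
Log2 difference (y axis, edgeR) of each tested member by class (x axis) for NK cells, Treg, γδ T cells and pDC against the mean of the CD8 T groups; filled points passed the adjusted threshold, and Cox6a2 is left out of all panels (8.74 in pDC). In γδ T cells 60 filled points lie below 0 and 2 above.

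The color comparison asks how cells that stayed at least 48 h differ from cells that entered since. KR+ is 1 library, so no test between colors was made. A member was counted as higher or lower in KR+ when its log2 ratio to both KG+ libraries had the same sign and the smaller ratio exceeded the gap between the KG+ libraries, among genes of at least 20 CPM. Intervals are exact 95% intervals for counting error only. The nuclear-encoded members tended to be higher in KR+ NK and CD8 T cells. In CD8 T Havcr2- cells 48 members were higher and 4 lower of 79, where 27.4% and 24.6% of all genes were. In Havcr2+ cells the members gave 31 and 7 of 79 (all genes 17.3% and 21.8%). In NK cells with neither integrin they gave 51 and 2 of 79 (21.3% and 46.1%), in NK Itga1+ 37 and 8 of 79 (18.8% and 33.6%) and in NK Itgam+ 27 and 5 of 77 (17.8% and 36.2%). γδ T cells gave 26 and 5 of 77 (15.6% and 17.1%). Treg went the other way, with 6 higher and 38 lower of 79 (23.7% and 20.7%), and pDC gave 18 and 21 of 80 (18.6% and 29.9%). The composition scaling of TMM raised the count to 64 higher and 2 lower in NK Itga1+ cells (all genes 30.4% and 23.3%). In NK Itgam+ cells it gave 41 and 2 (all genes 23.0% and 29.6%). At 6000 to 12000 UMIs per cell NK Itga1+ cells gave 13 and 15 (all genes 11.2% and 23.0%) and Treg 15 and 7 (18.6% and 15.7%). CD8 T Havcr2- cells kept 36 and 4 in that range (24.6% and 16.1%). Treg without cycling cells gave 18 and 16 (22.2% and 16.5%).

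Cox5b, Ndufa12, Ndufb4, Ndufb8 and Uqcrb were higher in KR+ in all 5 NK and CD8 T groups, a set picked out after the values were seen. The share of all genes called in all 5 groups was not counted. The groups come from the same 3 libraries, so they do not repeat the result independently. Cox5b was 605, 563 and 720.0 CPM in KG+ 1, KG+ 2 and KR+ NK Itga1+ cells, or 0.32 on the log2 scale (95% interval 0.28 to 0.36) against both KG+ libraries pooled. In CD8 T Havcr2+ cells it was 649, 616 and 720.4 CPM, or 0.20 on the log2 scale (95% interval 0.17 to 0.23). Ndufa10 led complex I in both groups, at 0.38 on the log2 scale (95% interval 0.28 to 0.47) and 0.19 on the log2 scale (95% interval 0.11 to 0.26). In NK Itgam+ cells it was lower in KR+, at 64.3, 68.9 and 53.8 CPM, with an interval that includes 0. In NK Itga1+ cells Ndufaf2, Uqcrc1 and Atp5g2 led their classes at 0.27, 0.28 and 0.29, and in CD8 T Havcr2+ cells Uqcrb and Atp5o at 0.13 and 0.15.

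In the 5 NK and CD8 T groups, where most called members were higher in KR+, Ndufa4 was lower in 4, and Ndufa6 and Atp5a1 were lower in 3. The share of all genes lower in as many groups was not counted either. Ndufa4 was 421, 396 and 335 CPM in KG+ 1, KG+ 2 and KR+ NK Itga1+ cells, or -0.27 on the log2 scale (95% interval -0.32 to -0.22). It was 376, 394 and 287 CPM in CD8 T Havcr2+ cells, or -0.44 on the log2 scale (95% interval -0.48 to -0.40). It was also lower in KR+ CD8 T Havcr2- cells, NK cells with neither integrin, Treg and pDC, and was not called in NK Itgam+ or γδ T cells. In Treg this was the direction of most called members (38 lower, 6 higher), and in pDC 21 were lower and 18 higher. The other members with the largest decreases in their class were Ndufa6 at -0.24 in NK Itga1+ and -0.14 in CD8 T Havcr2+ cells, Ndufaf8, Uqcrh and Atp5md at -0.19, -0.13 and -0.07 in NK Itga1+ cells, and Ndufaf7 (its interval includes 0), Uqcrc2 and Atp5a1 at -0.07, -0.10 and -0.20 in CD8 T Havcr2+ cells.

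The subunits encoded by mitochondrial DNA were called lower in KR+ more often than higher. Of 13, between 7 and 9 were lower and 0 higher in each NK, T and γδ T group, and 4 and 0 in pDC, where 17.1% to 46.1% of all genes were lower in the lymphocyte groups and 29.9% in pDC. In pDC the 4 of 13 were near the share over all genes. With TMM factors 4 were lower in each of the 3 NK groups and 7 to 9 in the CD8 T, Treg and γδ T groups. Of all genes, 29.6%, 33.0% and 23.3% were then lower in NK Itgam+, NK with neither integrin and NK Itga1+ cells. The NK counts were thus near the share over all genes. In the CD8 T, Treg and γδ T groups that share was 15.5% to 28.3%. mt-Nd2 was 1728, 1839 and 1069 CPM in KG+ 1, KG+ 2 and KR+ CD8 T Havcr2- cells, or -0.75 on the log2 scale (95% interval -0.76 to -0.73). mt-Atp8 was 156, 197 and 104 CPM, or -0.79 on the log2 scale (95% interval -0.85 to -0.73), and it also differed between the KG+ libraries by 0.34 in those cells. In sum the mitochondrially encoded share was 3.46%, 3.07% and 2.59% in CD8 T Havcr2- cells, 2.80%, 2.65% and 2.48% in NK Itga1+ cells and 2.55%, 2.27% and 1.94% in Treg, with KR+ lowest and KG+ 1 highest in each. The order was the same in the other lymphocyte groups. Because both KG+ libraries also differed from each other, library and color cannot be told apart here. Filtering removed cells above a mitochondrial share of 7.5%, and without that limit 7 to 11 of the 13 were lower and 0 higher in the lymphocyte groups. The median depth of a cell was also greater in KR+ than in both KG+ libraries in both CD8 T groups, NK Itga1+ cells, NK cells with neither integrin (12219 against 6043 and 7809 UMIs) and pDC, and lower in γδ T cells and in Treg (6904 against 8917 and 10146 UMIs). The part of depth in the color counts was not tested.

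**Figure D5:**
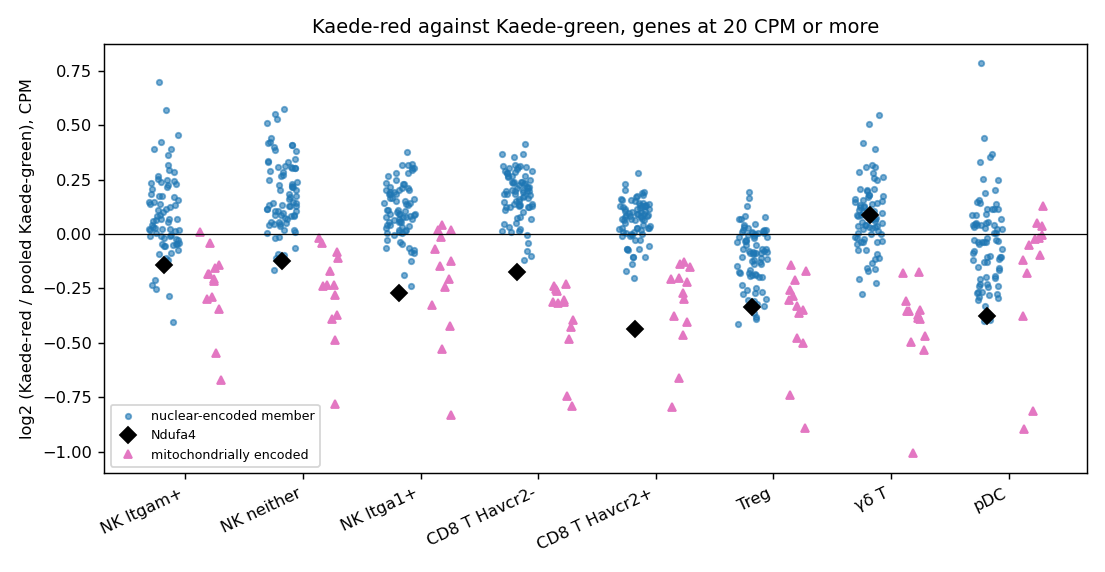
Log2 ratio of CPM in KR+ to the pooled KG+ libraries (y axis) for members of at least 20 CPM (circles), Ndufa4 (diamonds) and the mitochondrially encoded subunits (triangles) in each cell group (x axis). Most circles lie above 0 in CD8 T and NK groups and below 0 in Treg, while most triangles and the Ndufa4 diamonds except that of γδ T cells lie below 0.

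Promoter sequences of the members were also examined. Whether a match goes with the change of a member was not tested. Sequence windows from 250 bases before to 50 bases after the transcription start (RefSeq, GRCm38.p6) matched 74 of the 90 members, in 79 windows. Motifs of factors known for control of respiratory chain genes were searched on both strands, where N is any base: GCGCANGCG for NRF1, which overlaps itself in its palindromic form, CCGGAAG for the ETS family with GABPA, and AAGATGGCG for YY1. NRF1 matches were in 26.6% of member windows and 6.20% of the 32772 windows of all other genes, ETS matches in 21.5% and 8.83%, and YY1 matches in 10.1% and 1.38%. At least 1 match was in 48.1% of member windows and 14.7% of the others. By class NRF1 matched 8 of 33 complex I subunits, 7 of 15 ATP synthase genes, 2 of 5 complex III genes, 2 of 7 assembly factors and 1 of 14 complex IV genes that had a window. A match describes the letters only. A member with a match outside annotated exons is shown for each class, 5′ to 3′ on the strand of the gene, with matches in capitals. The labels do not list every call of a gene. Ndufs5 and Ndufaf4 were also higher in NK Itga1+ than in NK Itgam+ cells, by 0.47 and 0.61 on the log2 scale.
Ndufs5, rising in CD8 T Havcr2+ cells (chr4:123718251-123718310, minus strand, 65 to 124 bases before the start): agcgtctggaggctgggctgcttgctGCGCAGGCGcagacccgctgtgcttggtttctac
Ndufaf4, lower in Treg (chr4:24897944-24898003, plus strand, 80 to 139 bases before the start): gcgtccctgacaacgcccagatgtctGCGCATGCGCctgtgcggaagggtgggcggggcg
Uqcrh, lower in NK cells, Treg and pDC (chr4:116075072-116075131, minus strand, 2 to 61 bases before the start): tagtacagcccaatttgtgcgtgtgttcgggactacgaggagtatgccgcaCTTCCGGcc
Cox6a1, the paralog kept beside Cox6a2 in pDC (chr5:115349070-115349129, minus strand, 112 to 171 bases before the start): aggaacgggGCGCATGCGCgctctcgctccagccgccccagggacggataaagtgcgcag
Atp5l, lower in NK cells and Treg (chr9:44920933-44920992, minus strand, 191 to 250 bases before the start): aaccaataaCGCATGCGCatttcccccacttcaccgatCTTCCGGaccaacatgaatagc

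NRF1 matches stand in Ndufs5, Ndufaf4, Cox6a1 and Atp5l, and ETS matches in Uqcrh and Atp5l. In the GRCm38 annotation of GENCODE, Cox6a2 lies at chr7:128205435-128206387 and Cox6a1 at chr5:115345642-115348981, both on the minus strand, and none of the 90 members shares exon bases with another listed gene on its own strand.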

How the data were processed

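Single-cell 3′ RNA-seq of 3 libraries was used, as the raw UMI counts per gene and barcode that the authors deposited. Per the file headers the counts came from Cell Ranger 6.0.1, whereas the processing notes name Cell Ranger 6.1.2 and the genome build mm10. Here, barcodes with 1000 to 6000 genes and at most 7.5% mitochondrial UMIs were kept, and doublets were scored by simulation within each library and removed (2.40%, 3.45% and 1.62% of cells). Groups were set by raw UMI gates. Counts were summed into 24 sums (8 groups in 3 libraries), filtered with filterByExpr, scaled by TMM and fitted jointly in edgeR 4.0.16 (R 4.3.3) with the library as a block, leaving 14 residual degrees of freedom. Calls were made at an adjusted p of 0.05 over 12302 genes. DESeq2 1.42.0 was an alternative. Python 3.11.15, numpy 2.4.6, scipy 1.17.1 and pandas 2.3.3 were used for the color comparison, where 0.5 was added to each count. In simulated data for NK Itga1+ against Itgam+ cells (11439 genes), 32% of 1.25-fold, 82% of 1.5-fold and 100% of 2-fold changes were recovered.

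Named members were the 2 largest rises and falls past the threshold per class and comparison, the paralog sets in every group, and, by color, the largest rise and fall per class in NK Itga1+ and CD8 T Havcr2+ cells. Of the other lists, all called genes are named where they are 5 or fewer, otherwise the extremes. Some genes that this rule names are not reported here. Atp5g1, Atp5g3 and Uqcrh in the NK contrast and mt-Nd2 and mt-Atp8 by color were picked after their values were seen. The members and lists were chosen with earlier results of these data known. Exact intervals cover counting error only. Alternatives covered the scaling, the filters on genes, cells, doublets and cycling cells, cell depth, the block, the samples fitted and each library left out.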

Additional observations from a re-analysis of the deposited data

Results flagged for a closer look

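For 8 members the change from NK Itgam+ to Itga1+ cells differed from the change from CD8 T Havcr2- to Havcr2+ cells in the interaction term of the edgeR fit. On the log2 scale the NK change exceeded the CD8 T change by 1.58 for Ndufaf6, 0.75 for Ndufa10, 0.70 for Atp5g2, 0.68 for Ndufa9, 0.61 for Ndufs3, 0.53 for Ndufv1, 0.50 for Ndufs7 and 0.50 for Uqcr10. Ndufa10 and Ndufa9 are accessory subunits and Ndufs3, Ndufs7 and Ndufv1 core subunits of complex I. The same call was made for 6.4% of 12302 genes, so 8 of 85 members was not far above the share over all genes. None of the 85 members tested passed without KG+ 1 or without KG+ 2, where only 0.39% and 0.16% of all genes were higher. Without the library block 1 passed, against 1.61% of all genes. In cells of 6000 to 12000 UMIs 1 passed, against 1.47% of all genes, and the median over members was -0.01. Uqcr10 changed sign in that range. In KR+ the NK Itga1+ cells were the deepest group, with a median of 24459 UMIs.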

How the results depend on the processing

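Of 74 values of named members, 4 changed sign under any of 12 alternatives, all in cells of 6000 to 12000 UMIs: Uqcr10 in NK Itga1+ against Itgam+ cells (-0.029) and in the NK contrast minus the CD8 T contrast (-0.14), Ndufa4 in Treg (-0.10) and Uqcr10 in pDC (0.072). A call was lost with its direction kept for 30 of 74 without KG+ 2, 27 without KG+ 1 and 24 in cells of 6000 to 12000 UMIs, beside the 4 that changed sign there, and for 0 without the mitochondrial limit. The causes of these shifts were not tested.

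Counts of members higher in NK Itga1+ cells were 0 in cells of 6000 to 12000 UMIs, where 0.32% of all genes were higher. Members lower in NK Itga1+ cells were 2 with total UMIs in place of TMM factors and 1 each with DESeq2, with no filter on low counts and with only the groups compared. The lower shares over all genes were then 17.9%, 16.9%, 6.08% and 17.6%. For CD8 T Havcr2+ cells, the numbers of members higher and lower were 26 and 0 with total UMIs, 31 and 2 with DESeq2, 3 and 0 with no filter, 35 and 3 with only the groups compared and 22 and 0 without cycling cells, and 0 were lower with doublets kept and in cells of 6000 to 12000 UMIs. In that order, the higher shares over all genes were 7.52%, 7.97%, 4.42%, 13.8% and 8.19%. The lower shares were 6.19%, 9.05%, 4.55%, 14.3%, 7.68%, 8.09% and 6.44%. For the difference of these contrasts the higher count was 4 with total UMIs, 22 with only the groups compared, 1 in cells of 6000 to 12000 UMIs and 3 without cycling cells (all genes 3.96%, 11.6%, 1.47% and 3.58%). The lower count was 1 with no filter and 1 with only the groups compared (all genes 2.35% and 7.60%). Against CD8 T cells, NK cells had 8 members higher with DESeq2 and 7 with only the groups compared (all genes 22.8% and 23.1%). In cells of 6000 to 12000 UMIs they had 9 higher and 13 lower (all genes 19.0% and 20.7%). Treg had 8 higher and 6 lower with total UMIs (all genes 24.9% and 11.1%), 1 higher with no filter (10.4%) and 2 higher with doublets kept (18.5%). Without cycling cells they had 1 higher and 36 lower (18.2% and 15.7%). γδ T cells had 1 higher with no filter (all genes 9.22%) and 36 lower in cells of 6000 to 12000 UMIs (10.7%). pDC had 22 higher and 23 lower with total UMIs (all genes 32.3% and 25.7%), 5 higher with no filter (15.0%), and 19 higher and 12 lower in cells of 6000 to 12000 UMIs. In that range 23.1% of all genes were higher and 23.1% lower in pDC.

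Groups of 1 library share its cells' preparation, so the library was a block in each fit. Without this replicate block the CD8 T Havcr2+ counts were 0 higher and 0 lower, the difference of contrasts had 1 higher, Treg had 1 higher and 12 lower, and the other counts stayed within 1.5 times. The matching shares over all genes were 1.45% and 3.15% for CD8 T Havcr2+, 1.61% for the difference, and 14.4% and 12.1% for Treg. With a library left out, in which case the variation was estimated over all groups, the higher and lower counts ranged from 20 to 55 and 0 to 2 for NK Itga1+, 0 to 43 and 0 to 1 for CD8 T Havcr2+, 0 to 11 and 0 to 0 for the difference of contrasts, 2 to 5 and 6 to 39 for NK, 1 to 7 and 7 to 16 for Treg, 1 to 2 and 41 to 57 for γδ T and 2 to 11 and 25 to 35 for pDC. Shares over all genes ranged from 5.79% to 15.0% and 4.98% to 12.6% for NK Itga1+. They ranged from 0.85% to 13.4% and 1.83% to 10.4% for CD8 T Havcr2+. For the difference they were 0.16% to 6.78% and 0.11% to 5.66%. For NK they were 14.1% to 22.4% and 16.8% to 26.3%, for Treg 13.1% to 18.2% and 9.44% to 16.7%. For γδ T they were 12.9% to 15.0% and 12.0% to 15.9%, for pDC 22.6% to 26.2% and 24.3% to 30.1%. The respiratory chain share ranged from 2.23% to 2.30% in NK Itgam+, 2.42% to 2.56% in NK with neither integrin, 2.55% to 2.63% in NK Itga1+, 2.35% to 2.53% in CD8 T Havcr2-, 2.74% to 2.81% in CD8 T Havcr2+, 2.56% to 2.64% in Treg, 2.15% to 2.21% in γδ T cells and 2.57% to 2.64% in pDC.

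In cells of 6000 to 12000 UMIs the share was 2.40% in NK Itga1+, 2.23% in CD8 T Havcr2-, 2.52% in CD8 T Havcr2+ and 2.31% in Treg, and without cycling cells 2.66% in CD8 T Havcr2+ and 2.38% in Treg. Of the color counts, TMM factors gave 41 higher and 2 lower in NK Itgam+, 0 lower in NK with neither integrin, 64 higher and 2 lower in NK Itga1+, 4 lower in CD8 T Havcr2+ and 2 lower in γδ T cells. The shares over all genes moved too, in NK Itga1+ cells from 18.8% higher and 33.6% lower to 30.4% and 23.3%. With TMM factors 23.0% of all genes were higher and 29.6% lower in NK Itgam+ cells. Lower shares were 33.0% in NK with neither integrin, 18.7% in CD8 T Havcr2+ and 15.5% in γδ T cells. Cells of 6000 to 12000 UMIs gave 10 lower in NK Itgam+, 4 lower in NK with neither, 13 higher and 15 lower in NK Itga1+, 15 higher and 7 lower in Treg and 8 lower in γδ T cells, and this range was not run for pDC because only 7 KR+ cells fell in it. In these groups, in that order, 33.5%, 34.8%, 23.0%, 15.7% and 17.9% of all genes were lower. In NK Itga1+ and Treg 11.2% and 18.6% were higher. Without cycling cells there were 10 lower in NK Itgam+, 5 lower in NK Itga1+, 2 lower in CD8 T Havcr2-, 18 higher and 16 lower in Treg, and 15 higher and 10 lower in γδ T cells. Lower shares over all genes were then 36.6%, 38.6%, 24.1%, 16.5% and 17.1%, in that order. In Treg and γδ T cells 22.2% and 15.8% were higher. The KR+ NK Itgam+ sum, of 76 cells and 649985 UMIs, was the smallest and had the widest counting intervals.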
